A study of Arabidopsis thaliana with 6 samples.

Results

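The early flavonoid and flavonol genes are 10 of the 32678 gene models counted in Arabidopsis thaliana seeds: the enzyme genes CHS, CHI, F3H, F3'H, FLS1 and UGT78D2, the chalcone isomerase-like gene CHIL, and the regulator genes MYB11, MYB12 and MYB111. They were taken by locus identifier. RNA was sequenced from 3 libraries of non-green (yellow) seeds, labelled with the genotype Atchlsyn1-1, and 3 libraries of green seeds, labelled Atchlsyn1-1/CHLSYN. Both kinds segregated in the siliques of a chlorophyll synthase mutant and were separated after the seeds were taken out, and growth conditions were shared (22 °C, 16 h of light a day). The labels describe neither the mutation nor the seed age, and they do not say how many plants stand behind a library or whether replicates were grown apart. The p-values therefore reflect the spread among 6 libraries, which may be technical.

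Flavonoid synthesis starts from coumaroyl-CoA, a product of the general phenylpropanoid pathway. Chalcone synthase (CHS) joins it to malonyl-CoA, chalcone isomerase (CHI) closes the ring, and flavanone 3-hydroxylase (F3H) makes the dihydroflavonols. There the path divides. Flavonol synthase (FLS1) leads to the flavonols kaempferol and quercetin, which Arabidopsis stores as glycosides, while dihydroflavonol reductase (DFR) leads to anthocyanins and to the proanthocyanidins that turn the seed coat brown. The seed coat is maternal tissue, so it has the genotype of the mother plant in both kinds of seed.

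Total counts were 16438639 to 16745514 per library, no 2 libraries held identical counts, and chlorophyll synthase (CHLG, AT3G51820) had 11, 6 and 9 counts in non-green libraries against 46, 50 and 65 in green libraries (log2 fold change -2.69 ± 0.36, SE, edgeR adjusted p = 1.32e-09). Marker genes of embryo maturation were abundant in every library, at a summed 287291 to 298436 CPM in non-green and 322599 to 335031 CPM in green libraries over the 6 genes listed (3 called lower and 2 higher), where CPM is the count relative to the library total after TMM scaling, in ppm. Of 8 markers of the outer seed coat layers, 6 were lower in non-green seeds, with summed levels of 313 to 325 CPM against 433 to 449 CPM in green seeds. Beside these marker counts, 12.5% of all tested genes were called lower and 14.2% higher. Markers of the inner seed coat layer were scarce, at a summed 6.01 to 8.13 CPM in non-green and 7.40 to 7.84 CPM in green libraries over 6 genes. TT12 and TT1 had at most 2 counts in a library and TT16 at most 6. BAN had 46 to 73 counts, AHA10 35 to 55 and TT2 4 to 22. Of 7 endosperm markers 4 were tested, 2 of them lower (MEA and ALE1), and the summed level was 13382 to 14873 CPM in non-green and 12615 to 14578 CPM in green libraries, nearly all of it EPR1. Of 6 silique wall markers 4 were tested, 2 of them higher (FIL and YAB3), but DESeq2 called 0 of them. Their summed levels were 78.5 to 95.8 CPM in non-green and 74.5 to 81.6 CPM in green libraries. FUL was at 0 and IND had at most 3 counts in a library. FIL had at least 521 counts in every library, YAB3 349, SHP1 154 and SHP2 120. The part of these tissue shares in the results on flavonoid genes was not tested, and in bulk libraries fewer cells of a type and less RNA per cell cannot be told apart.

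Non-green seeds held more transcript of 8 of the 10 genes. CHS, CHI, CHIL, F3'H, FLS1, UGT78D2, MYB12 and MYB111 were higher at a Benjamini-Hochberg adjusted p under 0.05 in edgeR's quasi-likelihood test, and MYB11 and F3H had too few counts to be tested. Across the series 26.6% of 17239 tested genes were called, 14.2% higher and 12.5% lower. The median log2 fold change of the 8 tested genes was 1.35, against 0.00 over all tested genes. In each of the 8 the lowest non-green library lay above the highest green library, as it did for 19.2% of tested genes. Each of them also had at least 19 counts in every green library. FLS1, at 3.28-fold, had the largest fold and UGT78D2, at 1.31-fold, the smallest. All 7 apart from UGT78D2 were at least 2-fold higher, as were 2.4% of tested genes.

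**Figure D1:**
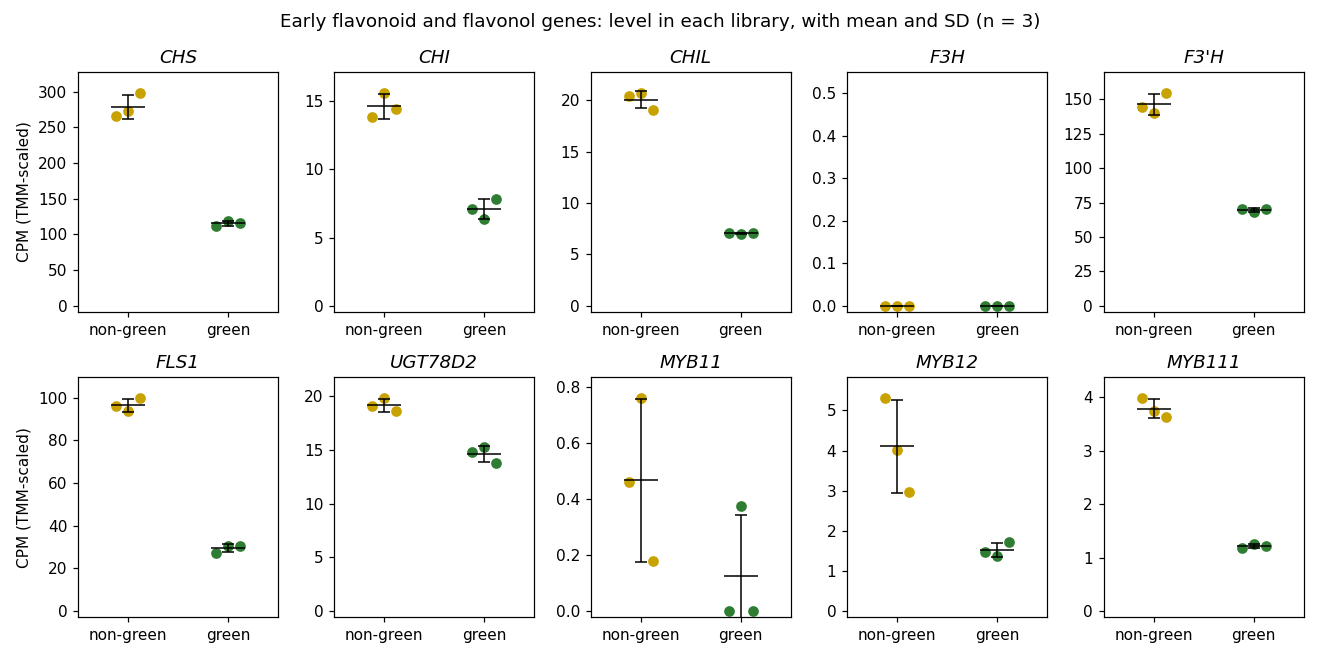
Level of each of the 10 genes in every library (vertical axis, CPM after TMM scaling, a scale of its own for each gene), with non-green libraries left and green libraries right. Points are libraries and bars are the mean and SD of 3. Non-green points lie above green points for 8 genes, MYB11 points overlap, and F3H is at 0 in all 6 libraries.

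CHS (AT5G13930, chromosome 5, 4488476 to 4490264, plus strand, 2 exons, coordinates here and below in TAIR10.1) makes the chalcone with which every flavonoid starts. It had 4609, 4681 and 5004 counts in non-green libraries and 1808, 1893 and 1908 in green libraries. Even the lowest non-green library held more than 2-fold the counts of the highest green one. The level was 279 ± 17.0 CPM in non-green and 116 ± 3.58 CPM in green seeds (SD, n = 3 each), a log2 fold change of 1.27 ± 0.04 (SE, edgeR adjusted p = 5.93e-42).

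CHI (AT3G55120, chromosome 3, 20430059 to 20431597, minus strand, 4 exons) had 240, 267 and 242 counts in non-green libraries, against 115, 102 and 128 in green libraries. Its related gene CHIL (AT5G05270, chromosome 5, 1563286 to 1565324, plus strand, 5 exons) encodes a protein of the isomerase family that does not catalyse the ring closure and raises flavonoid output by acting on chalcone synthase. CHIL had 354, 355 and 321 counts in non-green libraries, against 115, 111 and 116 in green libraries. Counts of CHI and CHIL were thus alike in green seeds, and CHIL was the more counted gene in each non-green library. The log2 fold change was 1.04 ± 0.13 for CHI (edgeR adjusted p = 7.89e-11) and 1.51 ± 0.12 for CHIL (edgeR adjusted p = 8.80e-20). The count ratio of CHIL to CHI within a library, which no scaling of libraries can change, was 1.475, 1.33 and 1.33 in non-green and 1.00, 1.09 and 0.906 in green libraries. The groups did not overlap, and the exact two-sided permutation p was 0.1, the smallest that 3 libraries against 3 allow.

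F3'H (TT7, AT5G07990, chromosome 5, 2560328 to 2563137, plus strand, 4 exons) is the cytochrome P450 that adds the hydroxyl group by which quercetin differs from kaempferol. It had 2504, 2401 and 2594 counts in non-green libraries and 1139, 1090 and 1156 in green libraries. The spread within each group was small beside the gap between them. Its levels of 146 ± 7.40 CPM in non-green and 69.8 ± 1.29 CPM in green seeds (SD, n = 3 each) gave a log2 fold change of 1.07 ± 0.05 (SE, edgeR adjusted p = 5.27e-34).

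FLS1 (AT5G08640, chromosome 5, 2803833 to 2805606, plus strand, 4 exons) is the main flavonol synthase of Arabidopsis. It had 1665, 1608 and 1674 counts in non-green libraries, against 440, 490 and 495 in green libraries. No green library came near the non-green ones. Its levels were 96.5 ± 2.97 CPM in non-green and 29.4 ± 1.92 CPM in green seeds (SD, n = 3 each), with a log2 fold change of 1.72 ± 0.06 (SE, edgeR adjusted p = 1.42e-41). The count ratio of FLS1 to CHS within a library was 0.361, 0.344 and 0.335 in non-green and 0.243, 0.259 and 0.259 in green libraries, 1.36-fold higher in non-green seeds without overlap (exact permutation p = 0.1).

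UGT78D2 (AT5G17050, chromosome 5, 5607788 to 5609589, minus strand, 2 exons) attaches glucose to the 3 position of flavonols and anthocyanidins. It had 331, 339 and 312 counts in non-green libraries and 239, 243 and 225 in green libraries. The groups were again apart, though by less than for the other enzyme genes. The log2 fold change was 0.39 ± 0.10 (edgeR adjusted p = 0.00116), with levels of 19.1 ± 0.603 CPM in non-green and 14.6 ± 0.751 CPM in green seeds (SD, n = 3 each). The count ratio of UGT78D2 to FLS1 was 0.199, 0.211 and 0.186 in non-green libraries and 0.543, 0.496 and 0.455 in green libraries, a log2 difference of -1.32 without overlap (exact permutation p = 0.1). This ratio was chosen after seeing the data and pairs the genes of smallest and largest fold, so its lack of overlap adds no separate result.

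MYB12 (AT2G47460, chromosome 2, 19476326 to 19479597, plus strand, 3 exons) and MYB111 (AT5G49330, chromosome 5, 19998823 to 20001572, minus strand, 3 exons) encode R2R3-MYB factors that activate CHS, CHI, F3H and FLS1. MYB111 had 69, 64 and 61 counts in non-green libraries, against 19, 20 and 20 in green libraries. MYB12 had 92, 69 and 50 counts in non-green libraries, against 24, 22 and 28 in green libraries. MYB12 varied more among the non-green libraries than MYB111 did, with 4.10 ± 1.16 CPM against 3.78 ± 0.176 CPM for MYB111 (SD, n = 3). The log2 fold change was 1.63 ± 0.28 for MYB111 (edgeR adjusted p = 1.45e-06) and 1.42 ± 0.26 for MYB12 (edgeR adjusted p = 8.47e-06). The third factor of this group, MYB11 (AT3G62610, chromosome 3, 23154630 to 23156585, plus strand, 3 exons), had 8, 13 and 3 counts in non-green libraries and 0, 6 and 0 in green libraries. These groups overlap, and the gene lay under the filter on low counts. Without that filter its log2 fold change was 1.85 ± 0.92 (edgeR adjusted p = 0.162), so a difference was not detectable at this depth.

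F3H (AT3G51240, chromosome 3, 19025192 to 19026872, plus strand, 4 exons) was listed at 0 counts in all 6 libraries, although CHI, before it in the pathway, had at least 102 counts in every library and FLS1, after it, at least 440. A count of 0 allows up to 3 counts, or 0.179 to 0.182 CPM of the unscaled library totals, for counting error only. A long noncoding gene on the other strand, AT3G51238 (chromosome 3, 19025110 to 19026779), shares 1415 of the 1508 exon bases of F3H (93.8%), and it was listed at 0 in all 6 libraries too. Exon overlaps were taken from the RefSeq annotation, whose gene models can differ from those the authors counted on. Among 323 protein-coding genes with at least 90% of their exon bases shared with another counted gene model, 39.6% were at 0 in all libraries, and the median gene had a mean of 0.667 counts. Among 20214 genes with no shared exon base, 22.6% were at 0 and the median was 35.8 counts. The share at 0 was 37.6% among 274 genes with 50% to under 90% shared, and 5.93% among 5901 genes with some but under 50% shared. The part of the overlap in the 0 of F3H was not tested, and from these counts an absent transcript and reads left uncounted cannot be told apart. Of the other 9 genes, CHS alone shared exon bases with another gene model, 0.117% of them.

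Per gene length the genes kept much of their order between the groups, with exceptions in the middle. In the authors' RPKM values (reads per kilobase of gene model, scaled to the library total), CHS stood highest with 192 ± 9.02 in non-green and 75.5 ± 1.5 in green seeds (SD, n = 3 each). F3'H followed with 81.7 ± 3.20 in non-green and 37.0 ± 1.19 in green seeds, and FLS1 with 74.2 ± 1.55 in non-green and 21.4 ± 1.19 in green seeds. Among the less abundant enzymes the order was CHIL, CHI, UGT78D2 in non-green seeds, at 21.0 ± 1.14, 16.1 ± 1.00 and 12.9 ± 0.534 RPKM, with no overlap between neighbours. It was UGT78D2, CHI, CHIL in green seeds, at 9.32 ± 0.420, 7.44 ± 0.827 and 6.99 ± 0.181 RPKM, where CHI and CHIL overlapped. The regulators were lowest. MYB111 and MYB12 overlapped in each group, at 2.96 ± 0.174 and 2.90 ± 0.856 RPKM in non-green and 0.905 ± 0.0188 and 1.02 ± 0.122 RPKM in green seeds, and MYB11 averaged 0.385 ± 0.241 RPKM in non-green and 0.0963 ± 0.167 RPKM in green seeds.

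**Figure D2:**
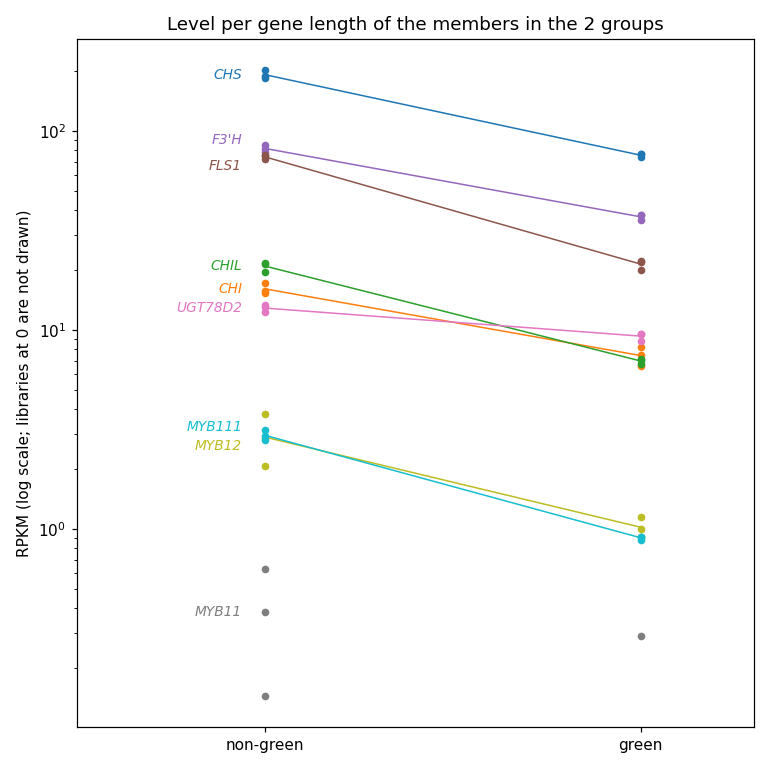
Level per gene length (vertical axis, the authors' RPKM on a log scale) of the 9 genes with counts, in non-green seeds at left and green seeds at right. Points are libraries and lines join the group means. UGT78D2 lies below CHI and CHIL in non-green seeds and above their means in green seeds, and no line is drawn for MYB11, which is at 0 in 2 green libraries.

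Together the 10 genes held 0.0590%, 0.0589% and 0.0617% of all counts in non-green libraries, against 0.0237%, 0.0239% and 0.0244% in green libraries. The groups did not overlap, and the non-green mean was 2.50-fold the green mean (exact permutation p = 0.1, the smallest possible). CHS made up 46.7% to 48.8% of these counts in non-green and 46.4% to 47.6% in green libraries, ranges that overlap. The authors' deposited table gives log2 fold changes of 1.68 for FLS1, 1.41 for CHIL, 1.25 for CHS, 1.2 for MYB111, 1.05 each for F3'H and MYB12, 0.96 for CHI and 0.37 for UGT78D2. It gives 0.33 for MYB11 (adjusted p = 0.246 in the authors' deposited table). The deposited values are smaller than those of edgeR for each of these 9 genes, and no source used here gives the settings behind them.

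Windows of 300 bases before the annotated gene start were read from the TAIR10.1 genome, to show which short elements known from light-regulated and MYB-regulated promoters lie near these genes. The elements searched on both strands were the G-box CACGTG, its core ACGTG, which also lies inside the G-box, and the AC elements, spelled ACCTACC, or with other middle letters ACCAACC, or with another end ACCTAAC. The G-box stood in the windows of 4 of the 10 genes (CHS, CHIL, F3H and MYB12) and in 6.53% of 31911 windows of the same length, and ACGTG in 5 of 10 (with MYB11 added) and in 24.5% of windows. Among the 17175 windows of tested genes the shares were 8.64% for the G-box and 26.4% for ACGTG. F3H and MYB11 were not tested, and of the 8 tested members CHS, CHIL and MYB12 alone held either element. An AC element stood in 1 of the 10 windows (CHIL, ACCTAAC on the other strand) and in 7.23% of all windows. ACCTACC alone stood in 0 of the 10 and in 1.32% of all windows. The G-box was also in the windows of DFR, which was called lower, and of BAN, which was not called. These matches are letters in a window and not shown binding sites, and the annotated start is the outermost one, so elements nearer the coding sequence may lie outside. The windows shown are those of CHS (chr5:4488176-4488475, plus strand), CHIL (chr5:1562986-1563285, plus strand) and MYB12 (chr2:19476026-19476325, plus strand), which hold the G-box in genes that were called higher, of FLS1 (chr5:2803533-2803832, plus strand), which rose most of the 8 and holds none of the elements, and of 4CL3 (chr1:24171636-24171935, minus strand), a gene of the preceding pathway described next that holds ACCTACC at 2 places. Each runs 5′ to 3′ in the direction of the gene, and capitals mark the matched elements.
CHS: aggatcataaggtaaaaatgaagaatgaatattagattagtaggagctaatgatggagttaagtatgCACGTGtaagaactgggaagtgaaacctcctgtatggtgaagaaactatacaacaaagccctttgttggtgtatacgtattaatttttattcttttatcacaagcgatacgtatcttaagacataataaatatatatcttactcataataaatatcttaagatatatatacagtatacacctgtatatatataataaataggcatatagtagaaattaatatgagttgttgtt
CHIL: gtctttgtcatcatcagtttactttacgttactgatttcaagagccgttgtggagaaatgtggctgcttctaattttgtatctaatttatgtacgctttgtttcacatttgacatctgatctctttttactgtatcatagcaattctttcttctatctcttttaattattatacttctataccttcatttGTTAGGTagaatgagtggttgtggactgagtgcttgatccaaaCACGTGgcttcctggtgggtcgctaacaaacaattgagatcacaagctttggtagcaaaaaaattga
MYB12: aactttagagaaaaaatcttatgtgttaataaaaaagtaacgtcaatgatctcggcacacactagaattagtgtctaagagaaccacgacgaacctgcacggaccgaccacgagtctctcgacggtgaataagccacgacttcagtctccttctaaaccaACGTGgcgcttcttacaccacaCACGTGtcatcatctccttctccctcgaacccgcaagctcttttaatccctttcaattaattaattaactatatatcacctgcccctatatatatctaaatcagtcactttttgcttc
FLS1: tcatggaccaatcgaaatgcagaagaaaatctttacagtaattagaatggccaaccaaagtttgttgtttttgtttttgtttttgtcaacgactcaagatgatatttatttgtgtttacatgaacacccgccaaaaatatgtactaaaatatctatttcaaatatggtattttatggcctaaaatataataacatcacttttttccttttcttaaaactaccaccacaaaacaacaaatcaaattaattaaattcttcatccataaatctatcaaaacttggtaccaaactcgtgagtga
4CL3: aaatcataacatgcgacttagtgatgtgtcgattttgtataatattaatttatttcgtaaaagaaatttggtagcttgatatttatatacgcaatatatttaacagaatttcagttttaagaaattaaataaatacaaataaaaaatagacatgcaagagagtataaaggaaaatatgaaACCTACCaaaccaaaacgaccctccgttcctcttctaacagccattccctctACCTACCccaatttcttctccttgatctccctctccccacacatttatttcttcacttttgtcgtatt

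The general phenylpropanoid genes, which supply coumaroyl-CoA to flavonoids, lignin and other products, moved both ways. Of 8 listed genes 7 were tested, 2 were higher and 4 lower in non-green seeds, with a median log2 fold change of -0.21. Over all tested genes 14.2% were higher and 12.5% lower, and the counts of this and the later lists stand beside those shares. No list was tested as a set. The exception in size was 4CL3, the 4-coumarate:CoA ligase gene assigned to the flavonoid branch, with 183, 215 and 180 counts in non-green libraries and 46, 35 and 42 in green libraries. Its log2 fold change of 2.15 ± 0.17 (SE, edgeR adjusted p = 7.60e-19) was larger than that of any of the 8 flavonoid genes tested. Its relative 4CL2 fell by 0.39 on the log2 scale (± 0.06, edgeR adjusted p = 2.74e-08), with 47.6 ± 1.15 CPM in non-green and 62.5 ± 1.54 CPM in green seeds (SD, n = 3 each). The phenylalanine ammonia-lyase gene PAL4 fell by 0.42 ± 0.04 (edgeR adjusted p = 1.08e-13), while PAL2 rose by 0.29 ± 0.06 (edgeR adjusted p = 0.000168). The count ratio of 4CL3 to 4CL1 within a library was 0.139, 0.166 and 0.135 in non-green and 0.0309, 0.0251 and 0.0291 in green libraries, 5.17-fold higher in non-green seeds without overlap (exact permutation p = 0.1).

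Among genes that decorate flavonols UGT78D1 and UGT89C1 were higher. Of 9 listed genes for flavonol glycosylation and flavonol synthase copies, 5 were tested, 2 were higher and 1 lower, with a median log2 fold change of -0.018 (0.057 with scaling by total counts alone). UGT78D1, which adds rhamnose at the 3 position, rose by 0.27 ± 0.06 on the log2 scale (edgeR adjusted p = 0.000173), and UGT89C1, which adds rhamnose at the 7 position, by 0.39 ± 0.09 (edgeR adjusted p = 0.000211). FLS3, a copy of the flavonol synthase gene, went the other way from FLS1. It had 223, 203 and 214 counts in non-green libraries and 341, 336 and 335 in green libraries, a log2 fold change of -0.74 ± 0.10 (SE, edgeR adjusted p = 2.77e-09). The remaining copies FLS2, FLS4 and FLS5 had at most 28 counts in any library.

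In the proanthocyanidin branch, which competes for dihydroflavonols, DFR and TT10 were lower and 3 tested genes were not called. Of 7 listed genes 5 were tested, 0 were higher and 2 lower by edgeR, with a median log2 fold change of -0.43. At an unadjusted p under 0.05, and with DESeq2, 0 were higher as well. Over all tested genes 14.2% were higher and 12.5% lower, so 0 of 5 higher is near the share over all genes. LDOX, with 6 to 16 counts in a library, and AHA10, with 35 to 55, were not called. DFR had 54, 59 and 70 counts in non-green libraries and 93, 93 and 84 in green libraries, a log2 fold change of -0.64 ± 0.19 (SE, edgeR adjusted p = 0.00772). Without non-green replicate 1 that call was lost (-0.55, edgeR adjusted p = 0.0514, and 0.00505 to 0.0514 over the alternatives). TT10, a laccase gene whose product oxidises flavonoids in the seed coat, had 532 ± 5.15 CPM in non-green and 725 ± 25.1 CPM in green seeds (SD, n = 3 each), a log2 fold change of -0.44 ± 0.04 (SE, edgeR adjusted p = 6.37e-19). For DFR and TT10 all non-green libraries lay below all green ones, as for 18.1% of tested genes. In the same libraries 6 of 8 outer seed coat markers were lower, with summed levels of 313 to 325 CPM in non-green and 433 to 449 CPM in green seeds, and the part of these markers in TT10 was not tested. BAN, the anthocyanidin reductase gene of the inner seed coat layer, had 69, 46 and 48 counts in non-green and 72, 73 and 62 in green libraries, which overlap (log2 fold change -0.43 ± 0.22, edgeR adjusted p = 0.15).

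Ratios within a library set FLS1 beside DFR, and CHS beside BAN. FLS1 had 30.8, 27.3 and 23.9 counts per count of DFR in non-green libraries, against 4.73, 5.27 and 5.89 in green libraries. The groups were far apart, with a ratio 5.15-fold higher in non-green seeds (log2 difference 2.37, exact permutation p = 0.1). CHS had 66.8, 102 and 104 counts per count of BAN in non-green libraries, against 25.1, 25.9 and 30.8 in green libraries, a ratio 3.28-fold higher in non-green seeds (exact permutation p = 0.1). The ratios of FLS1 to DFR and of CHS to BAN were planned, though the members and lists were chosen with earlier results of these data known. The other 4 ratios, FLS1 to CHS, UGT78D2 to FLS1, CHIL to CHI and 4CL3 to 4CL1, were chosen after seeing the data. For the 6 ratios computed, the Benjamini-Hochberg adjusted value of the exact permutation p was 0.1 each. Each ratio restates the fold changes of its 2 genes, so none of the 6 adds a separate result.

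**Figure D3:**
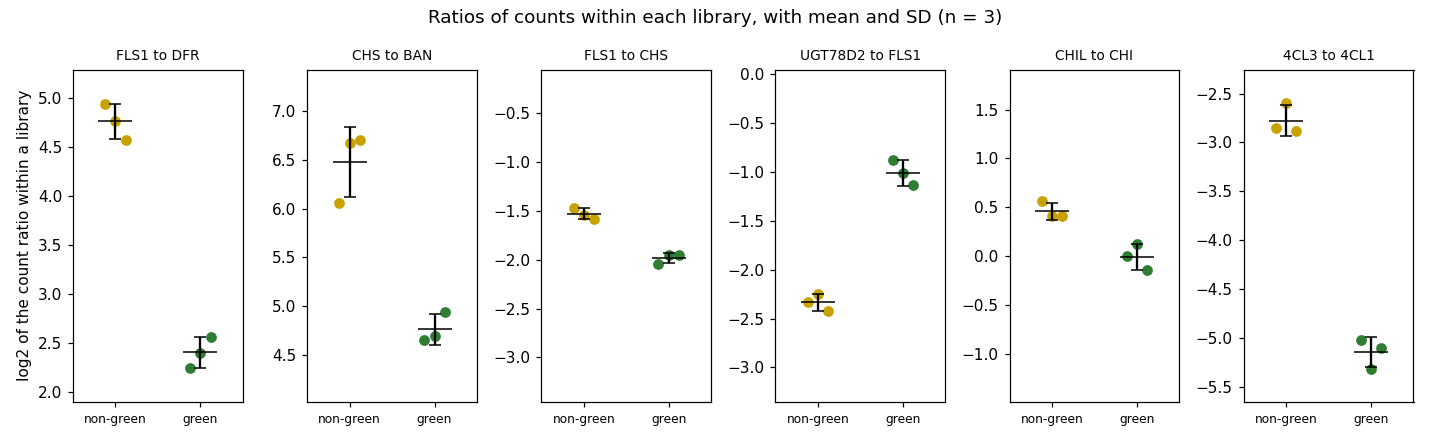
Log2 of 6 count ratios within each library (vertical axis, the same span in every panel), with non-green libraries left and green libraries right. Points are libraries and bars the mean and SD of 3. The groups are apart in each panel, and UGT78D2 to FLS1 is the ratio that is lower in non-green seeds.

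Among regulators of the late branch TT8, MYB5 and TTG2 were lower and PAP2 was higher, and among its decorating genes 3AT2 was lower. Of 13 regulators of proanthocyanidins and anthocyanins 8 were tested, 1 was higher and 3 lower, with a median of 0.00. DESeq2 called 0 higher and 3 lower. The 4 not called by edgeR were TT2 (0.94 ± 0.49, edgeR adjusted p = 0.159), EGL3 (0.28 ± 0.18, 0.268), GL3 (0.041 ± 0.43, 0.959) and TTG1 (-0.032 ± 0.12, 0.887). The bHLH gene TT8 had 23.1 ± 2.61 CPM in non-green and 34.3 ± 1.62 CPM in green seeds (log2 fold change -0.57 ± 0.08, edgeR adjusted p = 7.74e-09). MYB5, a MYB gene of the seed coat, had -0.51 ± 0.10 (edgeR adjusted p = 9.11e-06) and the WRKY gene TTG2 -0.71 ± 0.15 (edgeR adjusted p = 7.70e-05), and both are also among the outer seed coat markers. PAP2, an anthocyanin activator, had 24, 24 and 21 counts in non-green and 7, 15 and 4 in green libraries (1.31 ± 0.45, edgeR adjusted p = 0.0203). Its call was lost without either of non-green replicates 1 (0.0647) and 2 (0.0615), without either of green replicates 1 (0.0940) and 3 (0.154), and with DESeq2 (0.0526), within a range of 0.00509 to 0.154 over the alternatives. Its log2 fold change was 1.97 without green replicate 2 and 0.97 without green replicate 3. Reads of PAP2 and its near copies PAP1, MYB113 and MYB114 may be exchanged. Of 7 anthocyanin modification genes 3 were tested, and the acyltransferase gene 3AT2 alone was called, at -0.64 ± 0.18 (edgeR adjusted p = 0.00346, lost at 0.0556 without green replicate 1, with 0.00268 to 0.0556 over the alternatives). The other 2, 3AT1 (-0.55 ± 0.23, edgeR adjusted p = 0.0677) and BGLU10 (-0.031 ± 0.12, 0.887), did not pass. At an unadjusted p under 0.05 edgeR had 0 higher and 2 lower in this list, and DESeq2 called 0 higher and 1 lower.

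A list of 9 repressors of flavonoid genes and F-box genes of chalcone synthase turnover had 0 genes higher and 3 lower by edgeR. Its median log2 fold change was 0.049, and over all tested genes 14.2% were higher and 12.5% lower. At an unadjusted p under 0.05 1 was higher, MYB7, and DESeq2 called 0 higher. MYB7 had 105, 125 and 125 counts in non-green libraries and 88, 85 and 81 in green libraries (0.40 ± 0.17, edgeR adjusted p = 0.0609). MYBL2, a MYB-like repressor of DFR and other late genes, had 169, 172 and 202 counts in non-green libraries and 240, 261 and 272 in green libraries (-0.59 ± 0.11, edgeR adjusted p = 1.82e-05). KFBCHS, the kelch repeat F-box gene whose product marks chalcone synthase protein for breakdown, had 191, 164 and 225 counts in non-green libraries and 227, 309 and 279 in green libraries (-0.57 ± 0.12, edgeR adjusted p = 4.92e-05). The highest non-green library of KFBCHS lay just under the lowest green one. MYB32, a repressor of the phenylpropanoid pathway, had -0.73 ± 0.23 (edgeR adjusted p = 0.0105), which was lost without non-green replicate 3 (0.0504) or green replicate 3 (0.0610), within 0.00935 to 0.0610 over the alternatives. In this list 1 gene was higher with scaling by total counts alone, without non-green replicate 1 and without green replicate 3, and 2 genes were called, both lower, without non-green replicate 3.

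Among light signalling genes, some of which act on CHS, HYH and COP1 were higher and UVR8 was lower. Of 9 listed genes 7 were tested, 2 were higher and 1 lower, with a median of 0.061. HYH, a bZIP factor related to HY5, had 53, 77 and 83 counts in non-green libraries and 35, 44 and 33 in green libraries (0.85 ± 0.24, edgeR adjusted p = 0.00408), and HY5 itself had 0.19 ± 0.15 (edgeR adjusted p = 0.388). COP1, which marks such factors for breakdown, had 0.28 ± 0.08 (edgeR adjusted p = 0.00842). Without non-green replicate 3 the calls of HYH (0.0509, with 0.00133 to 0.0509 over the alternatives) and COP1 (0.0603, with 0.000755 to 0.0603) were lost. The UV-B receptor gene UVR8 had -0.18 ± 0.05 (edgeR adjusted p = 0.00277), which was not called with scaling by total counts alone (-0.10, 0.125, with 0.00172 to 0.125 over the alternatives).

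**Figure D4:**
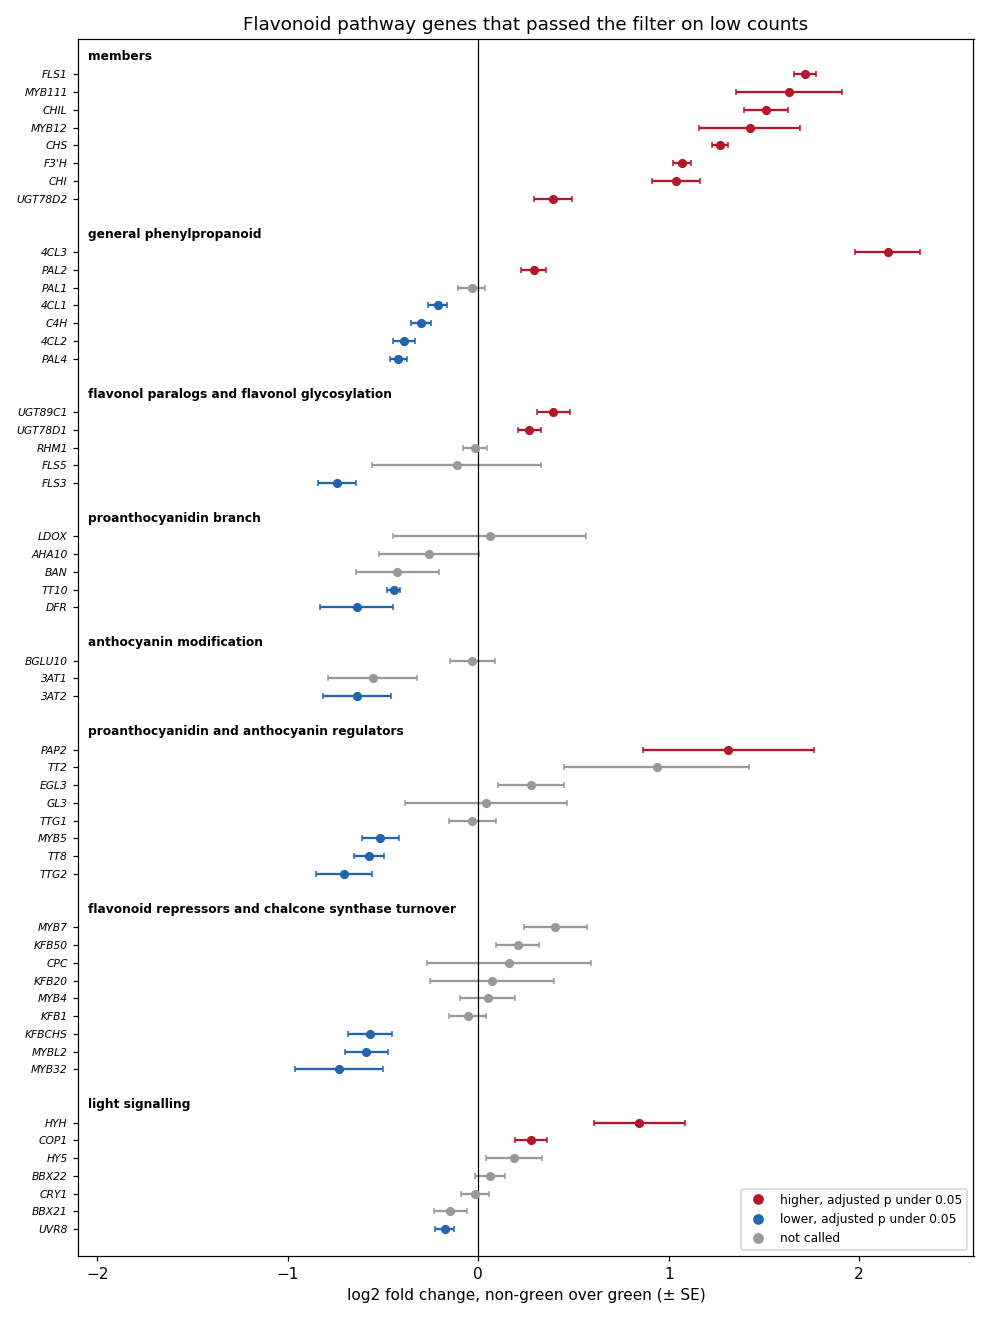
Log2 fold change of non-green over green seeds (horizontal axis, bars are SE from edgeR, n = 3 per group) for the flavonoid genes and for the 7 lists of related genes, restricted to genes that passed the filter on low counts. Colour gives the call. The 8 members are on the right of 0, with 4CL3 farther right at 2.15, while DFR, TT10, TT8 and FLS3 lie on the left.

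The genes whose levels across the 6 libraries lay nearest to those of CHS, among genes with a mean of at least 20 CPM and by Euclidean distance of centred log2 CPM, were SDI1 (AT5G48850, listed as ATSDI1, at distance 0.122), AT1G07400, of the HSP20-like chaperones (0.133), AT3G61680, of the alpha/beta-hydrolases (0.153), JMJD5 (AT3G20810, 0.170) and ANTR2 (AT4G00370, 0.201). Their log2 fold changes ran from 1.23 to 1.34, beside 1.27 for CHS. Of the 9 other early flavonoid and flavonol genes, F3'H and FLS1 alone reached that mean level, so the remaining 7 could not have been listed. With 6 libraries in 2 groups the distance is mostly a measure of alike fold changes.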

How the data were processed

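RNA-seq counts of 6 libraries were used. Per library, the authors' table holds deposited counts of reads on each gene model and RPKM, and Bowtie 0.12.2 and TAIR10 are named per the submitters' processing notes. No source used here gives the counting program, its use of strand or its handling of multiply mapped reads, so counts of near-identical or overlapping genes are uncertain. The RPKM are the deposited counts scaled by length and library total (100% of 29216 checked values gave a whole length within 0.05 bases). The authors' deposited table also holds a mean signal, log2 fold changes, a test score and p-values. Of these, only log2 fold changes and the adjusted p of MYB11 are quoted.

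Counts were tested with edgeR 4.0.16 in R 4.3.3 (filterByExpr by group with a minimum count of 10, TMM factors of 0.959 to 1.04, quasi-likelihood test with group alone, Benjamini-Hochberg over all 17239 genes kept). These held at least 99.9% of counts. The SE is the log2 fold change over the square root of F, all tests were two-sided, and the common biological variation was 5.68%. The fit was tested on simulated data, with 50 genes changed at each size. It recovered 30% of them at 1.2-fold, 64% at 1.5-fold, 96% at 2-fold and 100% at 4-fold, so small changes can be missed. Genes with few counts were not among those changed, and fewer genes were changed than were called in the data. These rates therefore do not give the recovery in the data itself. Alternatives were RLE factors, total counts alone, no filter, DESeq2 1.42.0, the replicate number as a block, and each library left out. The members and lists were chosen with earlier results of these data known. All 10 members were named, and so were DFR, BAN, CHLG, the 5 genes nearest to CHS, and in each list the 3 tested genes of lowest adjusted p plus 1 called gene of the rarer direction. PAL2, 4CL1 (in a ratio), FLS2, FLS4, FLS5, HY5, LDOX, MYB7, EGL3, GL3, TTG1 and the tissue markers named stand outside that rule. They were chosen after their values were seen. Gene positions, exon overlaps and sequences come from RefSeq TAIR10.1, where 97.7% of the identifiers were found.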

Additional observations from a re-analysis of the deposited data

How the results depend on the processing

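The 8 calls among the early flavonoid genes were kept in each of 11 alternatives, with log2 fold changes of 1.22 to 1.34 for CHS, 0.97 to 1.11 for CHI, 1.48 to 1.58 for CHIL, 1.03 to 1.14 for F3'H, 1.66 to 1.79 for FLS1, 0.35 to 0.47 for UGT78D2, 1.19 to 1.61 for MYB12 and 1.59 to 1.71 for MYB111. Over all genes the calls ran from 3673 (DESeq2) to 4643 under the alternatives, beside 4593, and leaving out 1 library gave 3968 to 4150. Higher genes made up 53.2% of calls, and 70.5% with scaling by total counts alone (3266 higher and 1364 lower), which moved the median log2 fold change of all tested genes to 0.08. Same-numbered libraries of the 2 groups did not deviate together (r of 0.0133, 0.00385 and -0.0014 for numbers 1, 2 and 3). With the replicate block 4643 genes were called, the 8 members among them. Without single libraries the calls in a list ran from 1 to 2 for proanthocyanidin genes, from 1 to 2 for anthocyanin modification, from 3 to 4 for late-branch regulators, from 2 to 4 for repressors and turnover genes and from 1 to 3 for light signalling. BGLU10, at -0.031, changed sign to 0.044 with total counts, and ran from -0.075 to 0.023 without single libraries, above 0 without non-green replicate 2 or green replicate 1. 3AT1 was called without non-green replicate 1 (0.0463) or green replicate 1 (0.0274). The difference in the share of counts was 0.0359 percentage points of all counts and 0.0689 of counts outside the 20 most abundant genes, a smaller denominator by construction. Depth limits MYB11. The 0 of F3H stands beside its overlap with AT3G51238, whose part was not tested.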
